A study of Mus musculus with 4 samples.

Results

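Enzymes that add methyl groups to histones, enzymes that take them off, and histone deacetylases were followed in N2a cells, a mouse neuroblastoma line, cultured with 300 µM manganese (Mn) for 48 h or left untreated. Members were chosen by symbol, under a rule set with earlier results of these data known. They are the genes of the mRNA table named Kmt, Kdm, Hdac, Sirt, Prmt, Ezh, Suv39h or Setd with a number or letter behind, together with Ash1l, Ehmt1, Ehmt2, Nsd1, Dot1l and Setdb1. That gave 71 of 22287 genes, of which 27 are lysine methyltransferases, 8 arginine methyltransferases, 18 lysine demethylases and 18 deacetylases. Methyltransferases are called writers of the mark and demethylases its erasers.

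The series held 4 libraries, and the results below use 2 of them, 1 of total RNA from Mn-treated cells and 1 of total RNA from untreated cells. Both were depleted of ribosomal RNA and came from cells for which the labels give the strain C57BL/6, although the N2a line is known to derive from a tumour of strain A. The labelled treatment text is identical for all libraries, so the title of each library set its group. With 1 library per condition there was no test and no replicate check: every difference below is one between these libraries, with the spread between cultures unknown.

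Histone lysine and arginine residues carry methyl groups that are read by other proteins, and the effect depends on the site. Methylation of lysine 4 of histone H3 (H3K4) marks promoters and enhancers, H3K36 methylation marks the bodies of transcribed genes, and H3K9, H3K27 and H4K20 methylation mark silent chromatin. Demethylases remove the marks with flavin or with iron and 2-oxoglutarate as cofactors, and deacetylases, which depend on zinc or on NAD, remove acetyl groups from histones and from many other proteins.

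The Mn-treated library held 14606979 reads assigned to mRNA genes and the untreated library 13972452. Ratios are log2 values of the Mn-treated over the untreated library, each read count being divided by its column total after adding 0.5 reads; summed reads are given as CPM, reads scaled to equal library totals, and brackets give exact 95% intervals that cover counting error only. Genes with 20 reads or more, summed over the libraries, were taken as measured. A gene was taken as higher or lower when the ratio reached 1.5-fold. The middle one of 11872 measured genes had a log2 ratio of 0.18, so a ratio is also read against that value, and counts are repeated with the libraries scaled by their median ratio. In bulk RNA, fewer cells of a kind and less RNA per cell cannot be told apart. Of 14 neuronal and neuroblastoma markers, 12 had at least 20 reads in each library, among them Tubb3, a neuronal tubulin, and Hand2, while the neurofilament genes Nefl and Nefm had 0 reads in both. Markers of other cell types were low: summed FPKM (fragments scaled to gene length and library size) in the Mn-treated and the untreated library was 0.26 and 0.12 for 4 microglial and blood genes, with Ptprc, Cx3cr1 and Aif1 at 0 in both. It was 0.76 and 0.91 for 4 astrocyte genes, 3.52 and 2.28 for 4 oligodendrocyte genes, 0.48 and 0.37 for 4 fibroblast genes, and 1.33 and 0.90 for 3 endothelial genes. The part of these other types in the ratios below was not tested.

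Of the 71 enzymes, 68 were measured. Not measured were Prmt8, a brain arginine methyltransferase, with 0 reads in both libraries, Kdm4d, an H3K9 demethylase best known from testis, with 0 reads in the Mn-treated and 4 in the untreated library, and the Y-linked demethylase Kdm5d, with 2 and 0. The share of the enzymes past 1.5-fold was near that of all genes. At least 1.5-fold higher in the Mn-treated library were 15 members (22.1%), against 21.6% of all measured genes, and at least 1.5-fold lower were 5 members (7.35%), against 5.97%. At least 2-fold higher was 1 member, Kdm4c (1.47%, against 7.26% of all measured genes), and at least 2-fold lower were 4, Ash1l, Hdac7, Setd4 and Kdm8 (5.88%, against 1.69%). Of these 4, Hdac7 and Kdm8 fell short of 1.5-fold in the log2 fold change deposited by the authors, at -0.31 and -0.52. Setd4 had only 21 reads in the Mn-treated and 48 in the untreated library, and the 0 of Ash1l is described below. With median-ratio scaling the split at 1.5-fold turned round, to 7 higher (10.3%, against 13.4% of all measured genes) and 9 lower (13.2%, against 11.3%). The median log2 ratio was 0.23, or 0.05 with median-ratio scaling. Of the members' counting intervals, 37 lay above 0, 16 below and 15 spanned it, against 43.6%, 19.8% and 36.6% of all measured genes. Against the middle gene, 28 lay above, 21 below and 19 spanned it, where all measured genes had 29.0%, 31.1% and 39.9%.

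**Figure D1:**
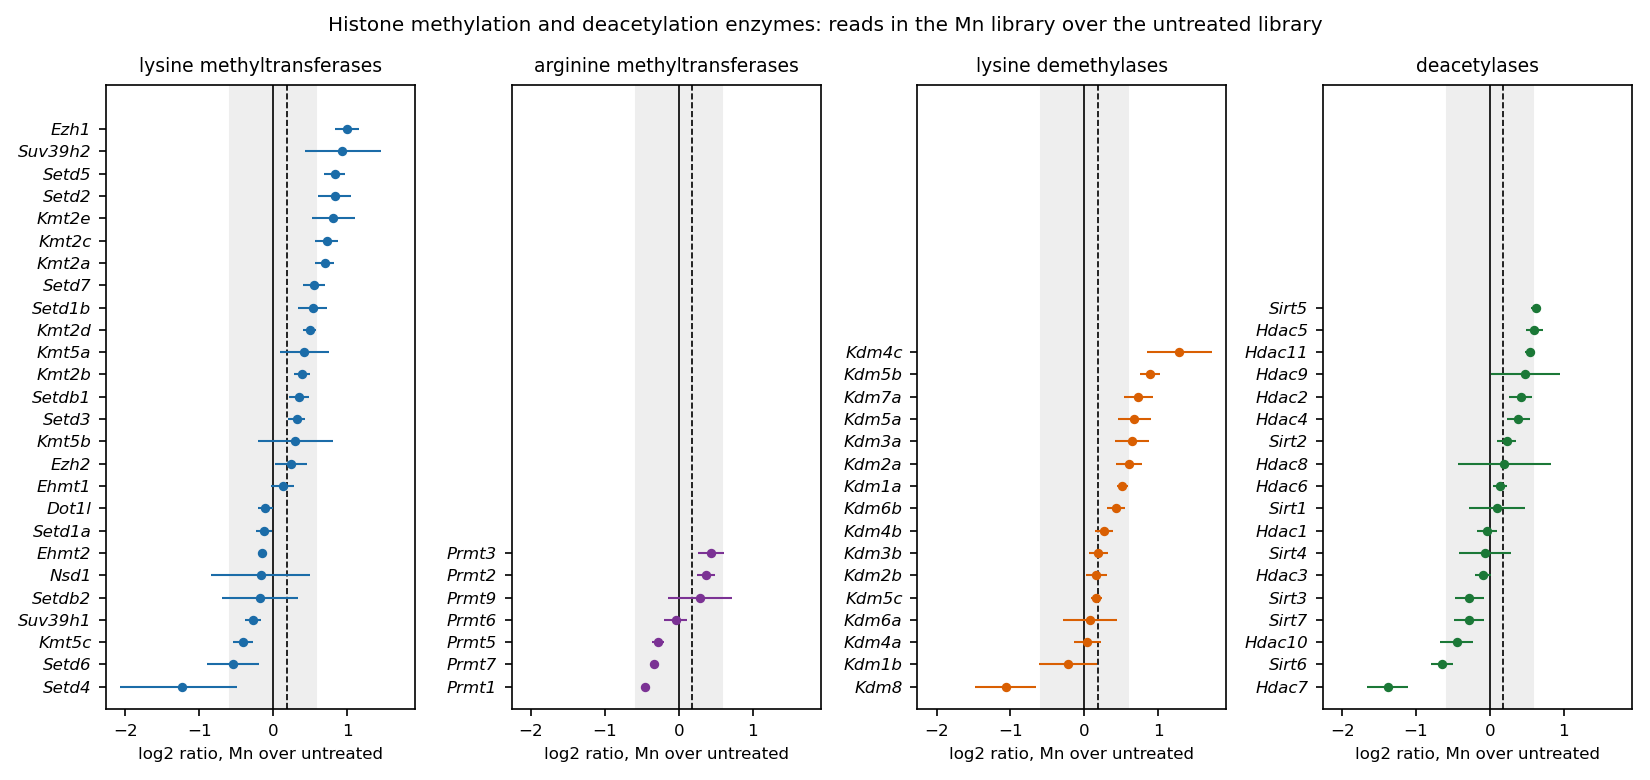
Log2 ratio of the Mn-treated over the untreated library (horizontal axis) for the measured enzymes of each class, sorted by ratio. Points are ratios, bars exact 95% counting intervals, the grey band spans 1.5-fold either way, the solid line is 0 and the dashed line the middle gene at 0.18; Ash1l, with 0 reads in the Mn-treated library, is not drawn.

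The 4 classes had different medians. Lysine demethylases had a median log2 ratio of 0.35, with 14 of 16 measured members above 0 and 10 above the middle gene. Lysine methyltransferases had a median of 0.32, with 17 of 27 above 0 and 16 above the middle gene, where 64.8% of all measured genes lay above 0. Deacetylases had a median of 0.11, which changed sign to -0.07 with median-ratio scaling. Arginine methyltransferases had a median of -0.04 with column totals and -0.23 with that scaling, but 0.12 when the enzymes with fractional read counts, among them Prmt1, were left out. Among the lysine methyltransferases, 5 have no histone target or an unsettled one: Kmt2e, Setd3, Setd4, Setd5 and Setd6. Of these 5, 2 were higher and 1 lower by 1.5-fold. Taken as writers, the 34 measured methyltransferases of both kinds, these 5 included, had a median of 0.29, with 7 higher and 2 lower. The 16 demethylases, taken as erasers, had 6 higher and 1 lower. Of all measured genes, 21.6% were higher and 5.97% lower. With median-ratio scaling 5 writers were higher and 5 lower, and 2 erasers were higher and 1 lower. All measured genes then had 13.4% higher and 11.3% lower. The difference of these medians, writers minus erasers, was -0.06, so by medians the opposing classes stood close together. By summed reads they did not: writers summed to 2879 CPM in the Mn-treated and 2910 in the untreated library, a ratio of 0.99 with a log2 interval that spans 0 [-0.04 to 0.00], and erasers to 1077 and 831 CPM, a log2 ratio of 0.37 [0.34 to 0.41]. The writers' sum joins parts of opposite sign. Lysine methyltransferases alone summed to 1903 CPM in the Mn-treated and 1724 in the untreated library, a log2 ratio of 0.14 [0.12 to 0.17]. Arginine methyltransferases summed to 976 and 1186 CPM, at -0.28 [-0.31 to -0.25]. The sum of the writers leans on a few abundant genes: Prmt1, Ehmt2, Prmt7 and Prmt5 were all lower in the Mn-treated library, by less than 1.5-fold.

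**Figure D2:**
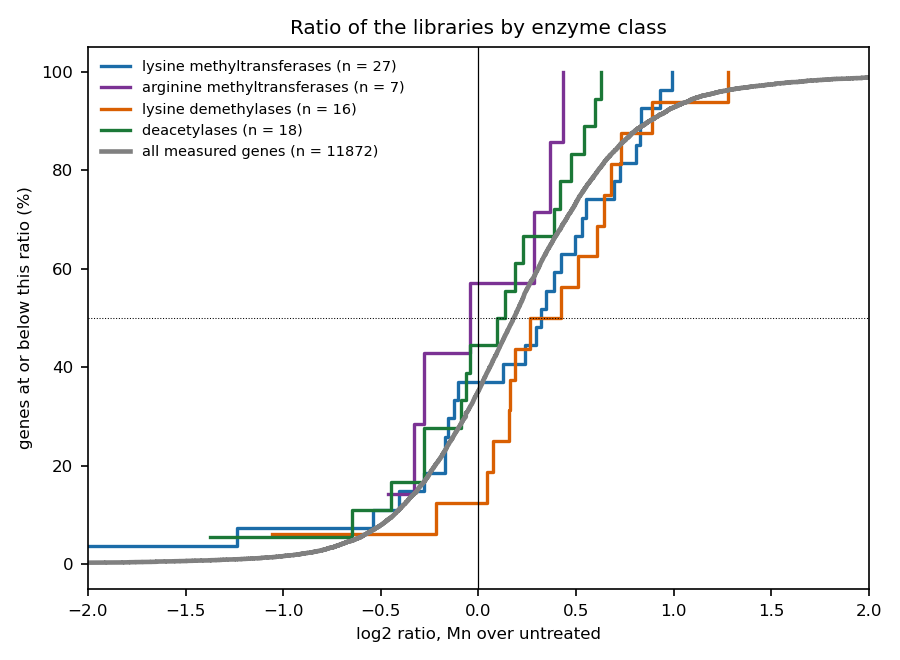
Cumulative share of genes (vertical axis, %) at or below each log2 ratio of the Mn-treated over the untreated library (horizontal axis), for the 4 enzyme classes and all 11872 measured genes. The curves of both lysine classes cross 50% to the right of that of all genes, and those of deacetylases and arginine methyltransferases to its left.

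Among the writers of H3K4 methylation, all but 1 of 7 had a counting interval above the middle gene, against 29.0% of all measured genes. These are long genes, with a median length of 12528 bases, and their median log2 ratio of 0.53 became 0.06 with the length trend described further on removed. Kmt2a, the founding member of the mixed-lineage leukaemia family, had 1400 reads in the Mn-treated and 826 in the untreated library, for a log2 ratio of 0.70 [0.57 to 0.82]. Its relative Kmt2c, which monomethylates H3K4 at enhancers, had 922 and 533 reads, for a log2 ratio of 0.73 [0.57 to 0.88]. Neither reached 1.5-fold with median-ratio scaling, at 0.51 for Kmt2a and 0.54 for Kmt2c, or with the length trend removed, at 0.22 and 0.25. The other 2 large members, Kmt2b and Kmt2d, were at 0.39 and 0.50, so that Kmt2a to Kmt2d summed to 452 and 311 CPM, a ratio of 1.45. Setd1b and Setd7, at 0.53 and 0.55, lay near Kmt2d. Setd1a, a partner-bound trimethylase like Setd1b, was the exception at -0.12 [-0.23 to -0.01], with 1357 and 1414 reads. The sign of Setd1a is the opposite in the authors' deposited table, at 0.13. Kmt2e, grouped with this family by name and without settled methyltransferase activity, had 290 and 158 reads, for a log2 ratio of 0.81 [0.53 to 1.10].

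The erasers of H3K4 methylation were placed much like the writers by median ratio and by summed reads. Median log2 ratios were 0.53 for the 7 writers and 0.51 for the 5 measured erasers, but 0.06 and 0.24 with the length trend removed. Of the 5 erasers, 3 had an interval above the middle gene and 1 below it (29.0% and 31.1% of all measured genes). The 7 writers summed to 646 and 482 CPM in the Mn-treated and untreated library, a ratio of 1.34 [log2 0.38 to 0.47], and the erasers, the few Kdm5d reads included, to 589 and 441 CPM, also a ratio of 1.34 [0.37 to 0.46]. Kdm1a (LSD1), a flavin-dependent demethylase of corepressor complexes and the most abundant demethylase here at 49.7 and 36.6 FPKM, had 3642 and 2441 reads, for a log2 ratio of 0.51 [0.44 to 0.59]. Kdm5b, which removes H3K4 trimethylation, had 1283 and 662 reads, for a log2 ratio of 0.89 [0.75 to 1.03], and its paralogue Kdm5a had 444 and 265, at 0.68 [0.46 to 0.91]. The X-linked paralogue Kdm5c was the most read of these 3 and had the smallest ratio, 3125 and 2677 reads at 0.16 [0.08 to 0.23], which median-ratio scaling moved to -0.02. The interval of Kdm5c lay below those of Kdm5a and Kdm5b. Kdm1b, the second flavin enzyme, had 107 and 119 reads, at -0.22 [-0.61 to 0.17]. In the authors' deposited table it is at 0.77, and the length implied by its count and FPKM differed 1.99-fold between the libraries.

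For H3K27, both catalytic subunits of Polycomb repressive complex 2 were measured, and the less usual one differed more. Ezh1 is the subunit known from resting cells and Ezh2 the one known from dividing cells. Ezh1 had 929 reads in the Mn-treated and 446 in the untreated library (12.3 and 6.23 FPKM), for a log2 ratio of 0.99 [0.83 to 1.16], the highest among the methyltransferases. Ezh2 had 377 and 305 reads (7.39 and 6.50 FPKM), for a log2 ratio of 0.24 [0.02 to 0.46] that spans the middle gene. The intervals did not overlap. Per length, Ezh1 was thus above Ezh2 in the Mn-treated library and close to it in the untreated one. Of the H3K27 demethylases, Kdm6b (JMJD3) was at 0.43 [0.30 to 0.55] with 1299 and 925 reads, and Kdm6a (UTX) at 0.07 [-0.29 to 0.44] with 131 and 119. The 250 bases before the start of both Ezh genes are shown because these paralogues share a function and differed in ratio. They come from RefSeq on the build GRCm38.p6, from chr11:101226464-101226713, minus strand, for Ezh1 and from chr6:47595031-47595280, minus strand, for Ezh2, and capitals here and below mark every match, on either strand, to 1 of 6 short motifs spelled out further on. Ezh2 carries 3 matches to the CCAAT box (ATTGG on the other strand), and Ezh1 carries no match to any of the 6.
Ezh1: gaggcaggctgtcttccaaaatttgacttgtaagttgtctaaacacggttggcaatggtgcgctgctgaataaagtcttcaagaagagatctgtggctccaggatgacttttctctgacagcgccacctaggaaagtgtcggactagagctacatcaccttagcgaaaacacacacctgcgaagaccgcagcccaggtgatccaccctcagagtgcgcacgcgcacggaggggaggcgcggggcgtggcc
Ezh2: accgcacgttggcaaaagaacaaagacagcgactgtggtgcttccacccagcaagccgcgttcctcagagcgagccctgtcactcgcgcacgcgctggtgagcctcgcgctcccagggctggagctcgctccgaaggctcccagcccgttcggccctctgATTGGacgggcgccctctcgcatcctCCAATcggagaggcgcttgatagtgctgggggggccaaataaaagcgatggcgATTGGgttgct

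H3K9 writers stood lower than H3K9 erasers. The 6 writers had a median log2 ratio of -0.01 and summed to 758 and 816 CPM in the Mn-treated and untreated library, a ratio of 0.93. The 6 measured erasers had a median of 0.46, none below 0, and with the few Kdm4d reads included the erasers summed to 279 and 221 CPM, a ratio of 1.26. With the length trend removed, the medians were -0.19 for the writers and 0.15 for the erasers. With median-ratio scaling Kdm4a lay below 0, at -0.14. Ehmt2 (G9a), which dimethylates H3K9 and is the most abundant lysine methyltransferase here at 87.5 and 96.1 FPKM, had 7865 and 8389 reads, for a log2 ratio of -0.16 [-0.20 to -0.11]. Its partner Ehmt1 was at 0.13 [-0.03 to 0.28] with column totals and at -0.06 after median-ratio scaling. Setdb1, which acts on retroelements, was at 0.35, and Setdb2 at -0.17 on 64 and 69 reads. The authors' deposited table puts Setdb2 at -0.72, past 1.5-fold, and its implied length differed 1.46-fold between the libraries. The paralogues Suv39h1 and Suv39h2, which trimethylate H3K9 in pericentric heterochromatin, differed in sign. Suv39h2 had 98 reads in the Mn-treated and 49 in the untreated library (1.51 and 0.81 FPKM), for a log2 ratio of 0.93 [0.43 to 1.46]. Suv39h1 had 1274 and 1476 reads (17.9 and 21.4 FPKM), for a log2 ratio of -0.28 [-0.39 to -0.17]. Suv39h1 was the more abundant of the pair in both libraries.

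Among the H3K9 erasers, Kdm4c had the highest ratio of all measured members, with 158 reads in the Mn-treated and 62 in the untreated library (1.53 and 0.67 FPKM), for a log2 ratio of 1.28 [0.85 to 1.73]. It removes trimethylation from H3K9 and H3K36, as do Kdm4a and Kdm4b, which were at 0.04 and 0.27 with 515 and 478 and with 1294 and 1029 reads. Kdm4c's interval lay above both of theirs. Kdm3a, an H3K9 demethylase known as a target of hypoxia-inducible factor, had 409 and 250 reads, for a log2 ratio of 0.64 [0.42 to 0.88], and Kdm3b was at 0.19. Kdm7a, which acts on H3K9 and H3K27, had 609 and 351 reads, for a log2 ratio of 0.73 [0.54 to 0.92]. The 250 bases before the Suv39h2 start (chr2:3474987-3475236, minus strand) and before 1 of the 2 listed Suv39h1 starts (chrX:8074761-8075010, minus strand), both GRCm38.p6, are given for the same reason as those of the Ezh genes. Suv39h2 carries 3 GC boxes and a palindrome that holds the core of the cyclic AMP response element on each strand. Suv39h1 carries 1 GC box and 2 CCAAT boxes.
Suv39h2: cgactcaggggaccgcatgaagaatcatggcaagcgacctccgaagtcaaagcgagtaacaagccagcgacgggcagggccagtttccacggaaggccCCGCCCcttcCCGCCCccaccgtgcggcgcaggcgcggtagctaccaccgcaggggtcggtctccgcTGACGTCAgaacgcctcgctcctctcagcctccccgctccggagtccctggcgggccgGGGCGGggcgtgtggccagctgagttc
Suv39h1: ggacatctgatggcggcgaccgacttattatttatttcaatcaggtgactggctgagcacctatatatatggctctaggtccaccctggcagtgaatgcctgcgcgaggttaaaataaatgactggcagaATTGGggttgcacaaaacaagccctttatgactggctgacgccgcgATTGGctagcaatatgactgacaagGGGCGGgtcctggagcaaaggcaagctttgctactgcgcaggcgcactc

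Writers of the other lysine marks did not share a placement. Setd2, the H3K36 trimethylase that travels with RNA polymerase II, had 493 reads in the Mn-treated and 265 in the untreated library, for a log2 ratio of 0.83 [0.61 to 1.05]. Nsd1, an H3K36 dimethylase, had 39 and 42 reads, at -0.17 [-0.84 to 0.49]. Setd5, whose own methyltransferase activity is debated, had 1153 and 619 reads, at 0.83 [0.69 to 0.98], while the authors' deposited table gives 0.52 for Setd5, short of 1.5-fold. Dot1l, the H3K79 methyltransferase, was at -0.10 [-0.21 to 0.00] with 1457 and 1498 reads. Of the H4K20 enzymes, Kmt5a, which adds the first methyl group, was at 0.42 with 192 and 137 reads, Kmt5b at 0.29 with 77 and 60, and Kmt5c at -0.41 [-0.55 to -0.27] with 746 and 946. The authors' deposited table has Kmt5b at 1.39, past 2-fold, and its implied length differed 2.13-fold between the libraries. Setd3, an actin histidine methyltransferase, was at 0.32 with 1402 and 1075 reads. The lowest ratios among measured lysine methyltransferases with reads in both libraries belonged to Setd4, with 21 and 48 reads (1.20 and 2.75 FPKM) at -1.24 [-2.07 to -0.49], and Setd6, with 115 and 160 reads at -0.54 [-0.90 to -0.19].

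Ash1l, a very long H3K36 dimethylase gene, was the extreme value, at 0 reads in the Mn-treated and 200 in the untreated library. The estimated count of the untreated library was not a whole number. The circular RNA table, read from the same libraries, also lists this gene in both libraries. Its back-splice junctions carried 14 reads in the Mn-treated and 23 in the untreated library, a log2 ratio over the junction totals of -0.39 [-1.48 to 0.61]. The main circle, of 838 spliced bases, had 11 and 17. The 0 in the mRNA table therefore stands beside junction reads from exons of the same gene, and the difference between these readouts was not tested.

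The H3K36 erasers were split. Kdm2a had 670 reads in the Mn-treated and 421 in the untreated library, for a log2 ratio of 0.61 [0.43 to 0.79], and Kdm2b, which recruits a Polycomb complex to CpG islands, had 878 and 750, at 0.16 [0.02 to 0.31]. In the authors' deposited table Kdm2b is at -0.25, and it changed sign with median-ratio scaling too. Kdm8, assigned to H3K36 although a hydroxylase activity is also described, had 75 and 150 reads (1.83 and 2.63 FPKM), for a log2 ratio of -1.06 [-1.48 to -0.65], the lowest among measured demethylases. Kdm8 is at -0.52 in the authors' deposited table, short of 1.5-fold, and its implied length differed 1.45-fold between the libraries. The windows before the starts of Kdm5b (chr1:134559928-134560177, plus strand) and Kdm8 (chr7:125444370-125444619, plus strand) in GRCm38.p6 are given as those of 2 erasers on opposite sides of the 1.5-fold limit, Kdm5b higher and Kdm8 lower. Each carries 1 GC box.
Kdm5b: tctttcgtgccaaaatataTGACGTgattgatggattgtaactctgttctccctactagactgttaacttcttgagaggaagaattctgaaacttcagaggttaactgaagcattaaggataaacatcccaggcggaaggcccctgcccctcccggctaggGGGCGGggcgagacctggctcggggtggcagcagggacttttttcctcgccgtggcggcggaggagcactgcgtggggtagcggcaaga
Kdm8: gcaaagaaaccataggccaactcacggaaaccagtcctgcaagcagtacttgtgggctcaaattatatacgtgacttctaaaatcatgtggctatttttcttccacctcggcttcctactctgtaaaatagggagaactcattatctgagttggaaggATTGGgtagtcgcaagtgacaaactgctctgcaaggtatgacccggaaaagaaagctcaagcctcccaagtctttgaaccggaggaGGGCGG

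The motifs searched on both strands were the GC box GGGCGG, the CCAAT box CCAAT, the E box CACGTG, the core of the cyclic AMP response element TGACGT, and 2 forms of the E2F site, TTTCCCGC and TTTGGCGC. Matches to this core can overlap in TGACGTCA, where both strands hold it. Promoter windows were listed for 58 members, and the first listed window of each was searched. The GC box was in 60.3% of them, against 32.9% of the first windows of all 27025 listed genes, and the CCAAT box in 43.1% against 34.5%. The E box was in 8.62% against 6.05%, this core in 8.62% against 6.56%, and the E2F forms in 3.45% against 0.93% and in none of the 58 against 0.44%. The members' windows were also richer in G and C, with a median of 60% against 52%. Of the 12 members at least 1.5-fold higher that had a window, 9 held a GC box and 3 a CCAAT box, and of the 4 that were lower 2 held each. A match is a description of the letters only.

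Arginine methyltransferases had the highest class median of the level, 26.9 FPKM in the Mn-treated and 20.4 FPKM in the untreated library, and none passed 1.5-fold in either direction. Prmt1, the main source of asymmetric dimethylarginine, was the most abundant of all members, at 277 FPKM in the Mn-treated and 365 FPKM in the untreated library. It had 5507 and 7257 reads, for a log2 ratio of -0.46 [-0.51 to -0.41], which passed 1.5-fold with median-ratio scaling at -0.64. Prmt5, the main symmetric dimethylase, had 2371 and 2749 reads (38.1 and 44.2 FPKM), at -0.28 [-0.36 to -0.20]. Prmt7, a monomethylase, had 3686 and 4427 (47.3 and 55.7 FPKM), at -0.33 [-0.39 to -0.26]. The less abundant Prmt2 and Prmt3, the second of which methylates a ribosomal protein, were at 0.37 [0.25 to 0.49] with 1332 and 987 reads and at 0.43 [0.25 to 0.61] with 625 and 443. Prmt6 was at -0.04 and Prmt9 at 0.28. The 3 most abundant enzymes were thus below 0, and their intervals did not overlap those of Prmt2 and Prmt3. The class summed to 412 FPKM in the Mn-treated and 505 FPKM in the untreated library, and without Prmt1 to 135 and 141.

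**Figure D3:**
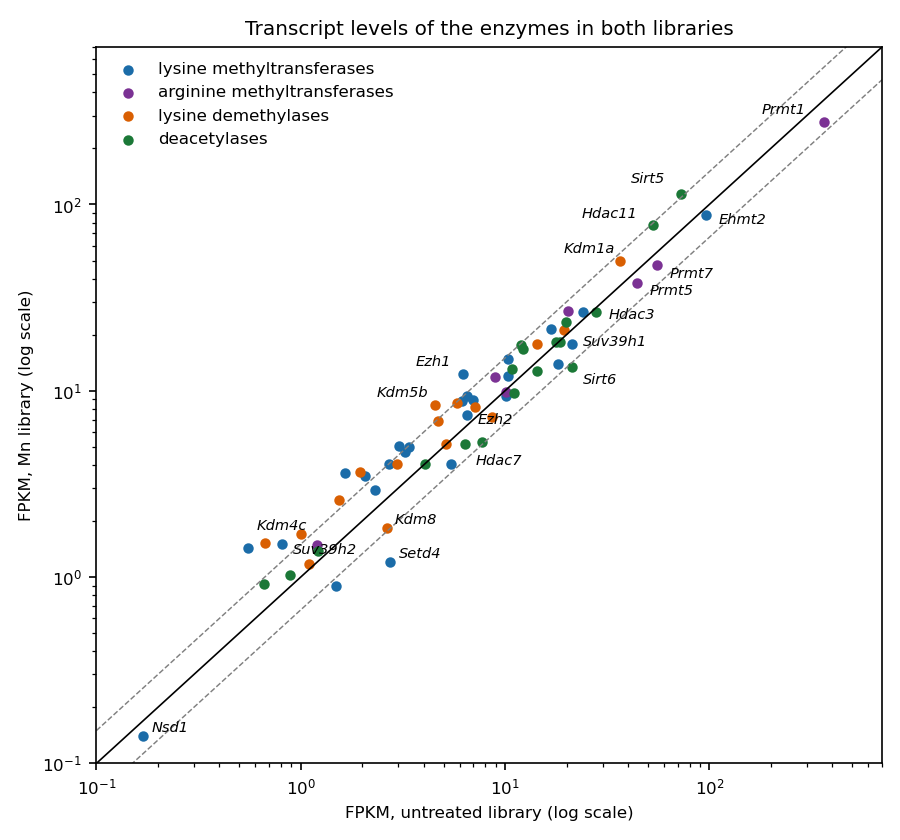
Transcript level of each measured enzyme, other than Ash1l, in FPKM of the Mn-treated library (vertical axis) against FPKM of the untreated library (horizontal axis), both on log scales. The solid line marks equal levels and the dashed lines 1.5-fold either way; Prmt1 lies at the top with 277 and 365 FPKM, and Sirt5 and Hdac11 lie above the solid line at 114 and 72.8 and at 77.9 and 53.0 FPKM.

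Of the zinc-dependent deacetylases, 11 in all, 1 was higher and 1 lower by 1.5-fold (21.6% and 5.97% of all measured genes), or none higher and 2 lower with median-ratio scaling (13.4% and 11.3%). Their median log2 ratio was 0.19, or 0.01 with that scaling. Among the class I enzymes, most of them catalytic subunits of nuclear corepressors, Hdac1 was at -0.04 [-0.18 to 0.09] and Hdac3 was at -0.09 [-0.20 to 0.02], with Hdac3 at 1319 reads in the Mn-treated and 1344 in the untreated library (26.4 and 27.8 FPKM). Hdac2 was above them at 0.42 [0.27 to 0.57] with 846 and 606 reads, and Hdac8 at 0.19 on 49 and 41. As a group class I summed to 215 and 207 CPM, a ratio of 1.03. The class IIa enzymes shuttle between nucleus and cytoplasm and repress MEF2 targets, and they diverged. Hdac5 had 1570 and 991 reads, for a log2 ratio of 0.60 [0.48 to 0.72], and Hdac4 and Hdac9 were at 0.39 and 0.47. Hdac7 had 152 and 378 reads, for a log2 ratio of -1.38 [-1.66 to -1.10], the lowest among the deacetylases. In the authors' deposited table, which compares FPKM, Hdac7 is at -0.31, from 5.16 and 6.39 FPKM, and the length implied by its count and FPKM differed 2.10-fold between the libraries, so the size of its difference depends on the unit. In class IIb the tubulin deacetylase Hdac6 was at 0.13 and Hdac10, a polyamine deacetylase, at -0.45 [-0.67 to -0.22]. Hdac11, the only class IV enzyme and known as a fatty acyl hydrolase, was the most abundant zinc-dependent member at 77.9 and 53.0 FPKM, and had 5094 and 3343 reads, for a log2 ratio of 0.54 [0.48 to 0.61].

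The 7 sirtuins, which depend on NAD, had no shared placement. Sirt5, a mitochondrial desuccinylase, had 5074 reads in the Mn-treated and 3144 in the untreated library (114 and 72.8 FPKM), for a log2 ratio of 0.63 [0.56 to 0.69]. Sirt6, a nuclear H3K9 and H3K56 deacetylase, had 589 and 882 reads (13.4 and 21.3 FPKM), for a log2 ratio of -0.65 [-0.80 to -0.49]. The other mitochondrial sirtuins did not follow Sirt5, with Sirt3 at -0.28 [-0.47 to -0.08] and Sirt4 at -0.06 [-0.41 to 0.28]. The nucleolar Sirt7 was at -0.28 [-0.48 to -0.08], the mostly cytoplasmic Sirt2 at 0.23 [0.10 to 0.36], and the nuclear Sirt1 at 0.09 with column totals and -0.09 with median-ratio scaling. The median of the sirtuins was -0.06, or -0.25 with median-ratio scaling. Because of Sirt5 their summed reads were nevertheless higher, at 532 and 434 CPM, a ratio of 1.23.

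Ratios moved with transcript length. The length was taken from the deposited values, as the reads divided by FPKM and by the library's total, averaged over both libraries. In all measured genes the median log2 ratio was 0.00 in the shortest of 20 length bins (median 1157 bases) and 0.47 in the longest (median 12517 bases). The members had a median of 5097 bases, against 4152 for all measured genes, and the lysine demethylases of 7043, the lysine methyltransferases of 5734, the arginine methyltransferases of 4355 and the deacetylases of 3452. Of the 34 members longer than the members' median, 13 were higher and 1 lower by 1.5-fold (38.2% higher, against 29.8% of the 4322 measured genes longer than that). Of the 34 others, 2 were higher and 4 lower (5.88% higher, against 16.8% of 7533 shorter genes). With the median of each gene's length bin subtracted, the median log2 ratio was 0.02 for lysine methyltransferases and 0.00 for lysine demethylases, and 4 members were at least 1.5-fold higher and 6 lower, in place of 15 and 5. Those higher were Kdm4c at 0.95, Suv39h2 at 0.78, Ezh1 at 0.78 and Sirt5 at 0.61. The lower ones included Nsd1 at -0.64, on 39 and 42 reads. The share of all measured genes past 1.5-fold was not counted with the trend removed. The counts of 4 and 6 are therefore not read as a trait of the enzymes. The part of length in the class medians was not tested. By level, 3 of the 34 members above the members' median FPKM were at least 1.5-fold higher and 1 lower (8.82% higher, against 7.99% of measured genes above that FPKM). Of the other 34, 12 were higher and 4 lower (35.3% higher, against 31.1% of measured genes up to it).

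**Figure D4:**
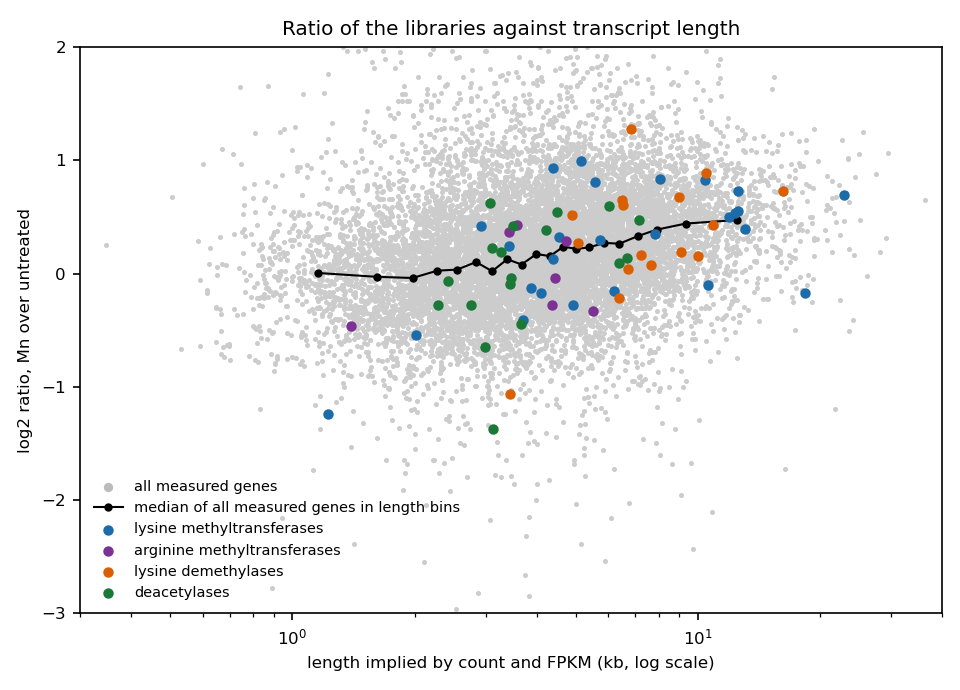
Log2 ratio of the Mn-treated over the untreated library (vertical axis) against the length implied by count and FPKM (horizontal axis, kb, log scale) for all measured genes in grey and the measured enzymes in colour. The black line joins the medians of 20 length bins, at 0.00 in the shortest and 0.47 in the longest; values beyond the vertical range, Ash1l among them, are not drawn.

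The deposited values limit how closely some members can be placed. Estimated counts were not whole numbers in one library or both for 23 of the 68 measured members, and for 7 of the 20 members past 1.5-fold: Ash1l, Kmt2e, Setd4, Setd5, Hdac5, Hdac7 and Sirt5. Of those 20, 13 also passed 1.5-fold the same way in the authors' deposited table and none had the opposite sign there. Short of 1.5-fold in that table were Kmt2a, Setd5, Kdm2a, Kdm3a, Kdm8, Hdac5 and Hdac7. With median-ratio scaling Kmt2a, Kmt2c, Kdm2a, Kdm3a, Kdm5a, Kdm7a, Hdac5 and Sirt5 fell short of it. The implied length differed at least 1.3-fold between the libraries for 6 measured members, Kmt5b, Hdac7, Kdm1b, Setdb2, Kdm8 and Kdm2b.

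Circular RNAs gave a second readout of the same libraries for some members. Of 2253 circular RNAs listed, 32 came from 19 members, with 107 junction reads in the Mn-treated and 122 in the untreated library. Over junction totals of 9433 and 11665 reads the log2 ratio was 0.12 [-0.27 to 0.50]. Among the 32, 5 had at least 10 reads over both libraries, where 534 of all 2253 did. Reads in both libraries were found for 17, in the Mn-treated library alone for 7 and in the untreated library alone for 8. This split was not counted over all circular RNAs, so it is not read as a trait of these enzymes. Ezh2 was the host with the most, at 26 reads in each library over 5 circles. Kdm4c had 16 and 13, Dot1l 6 and 16, Ehmt1 10 and 8, Kmt2c 7 and 0, Kmt2e 7 and 1, and Kdm5c 1 and 7. Counts this small leave wide intervals, from -2.75 to 0.32 on the log2 scale for Dot1l. Host genes outside the enzymes were not counted in the same way. Of the 19 hosts, 16 had intervals that span 0. The other 3 lay above it, Kmt2c from 0.83 and Kdm3b (5 and 0 reads) from 0.18, each with no upper limit, and Kmt2e from 0.15 to 8.61.

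**Figure D5:**
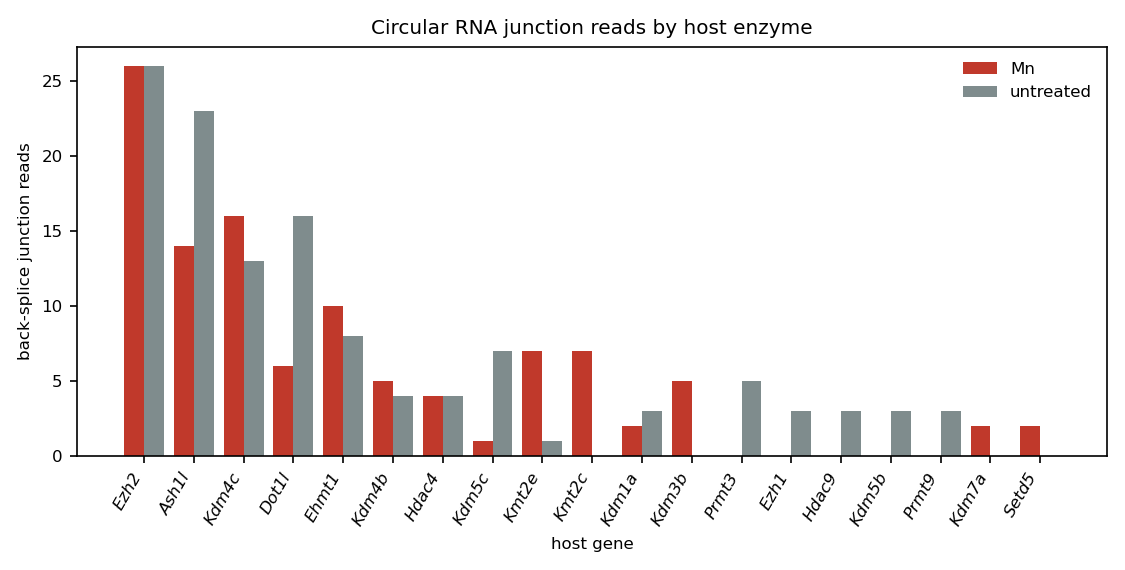
Back-splice junction reads (vertical axis) summed over the circular RNAs of each host enzyme, in the Mn-treated library (red, left) and the untreated library (grey, right). Ash1l has 14 and 23 junction reads, although the mRNA table lists it at 0 reads in the Mn-treated library.

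Partners and neighbours in the same pathways were read from lists. Beside the counts below, 21.6% of all measured genes were higher and 5.97% lower by 1.5-fold. Of 9 measured partners of Polycomb repressive complex 2, 1 was higher and 1 lower by 1.5-fold with a median log2 ratio of 0.27. The higher one, Phf1, which helps the complex bind chromatin, had 250 reads in the Mn-treated and 98 in the untreated library, at 1.28 [0.94 to 1.64]. The 15 genes listed as partners of the H3K4 methyltransferase complexes, not all of them subunits, had a median of -0.05, beside 0.53 for the 7 H3K4 writers. With the length trend removed these medians were -0.09 and 0.06. Of the 15, 3 were higher and 1 lower. Bod1l, a Setd1a partner, was at 1.17 and Pagr1a, a subunit of the Kmt2c and Kmt2d complexes, at -1.67 on 64 and 196 reads. The 38 listed partners of deacetylases had a median of 0.29, with 8 higher and 2 lower, or 6 and 4 with median-ratio scaling; 21.6% of all measured genes were higher. Tbl1x, a subunit of the Hdac3 corepressor, had 635 and 130 reads, for a log2 ratio of 2.22 [1.95 to 2.51]. Rcor1, which joins Kdm1a to Hdac1 and Hdac2, had 310 and 165 reads, at 0.84 [0.57 to 1.13]. In the authors' deposited table Tbl1x is at 2.24. Counts of Phf1, Pagr1a and Tbl1x were not whole numbers.

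Genes listed as writers and erasers outside the symbol rule were few and mostly within 1.5-fold. Of all measured genes, 21.6% were higher and 5.97% lower. Of 12 other measured genes listed as writers, 1 was higher, Fbxo11, and none lower, with a median log2 ratio of 0.20. Fbxo11 has no settled methyltransferase activity. Of 10 other measured genes listed as erasers, 2 were higher and none lower, with a median of 0.27. These were Jmjd1c, a relative of Kdm3a, with 642 reads in the Mn-treated and 290 in the untreated library, at 1.08 [0.88 to 1.29], and Rsbn1 at 0.70. The 20 histone acetyltransferases and coactivators, which oppose the deacetylases, had a median of 0.45 with 5 higher and 1 lower. Deacetylases had 0.11 with 2 and 2. With the length trend removed these medians were 0.00 and -0.11. With median-ratio scaling 3 acetyltransferases were higher and 2 lower, while no deacetylase was higher and 3 were lower. All measured genes then had 13.4% higher and 11.3% lower. Kat2b was at 0.94 and Kat6a at 0.80, while Kat8, the H4K16 acetyltransferase, had 48 and 116 reads, at -1.33 [-1.85 to -0.84]. Kat2b is at 0.12 and Kat6a at 1.52 in the authors' deposited table.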

How the data were processed

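Total RNA of N2a cells, 1 library with Mn and 1 without, was read from the mRNA table and the circular RNA table. The deposited estimated counts per gene, the deposited FPKM values and the authors' log2 fold change, a ratio of FPKM, stand in the first table, and the authors' deposited counts of back-splice junction reads in the second. The submitters' processing notes name fastp 0.18.0, Bowtie2, StringTie and the build mm9, with no role for each. Not given in the sources used here are the program that counted reads and its annotation. The lncRNA and small RNA tables were not used here.

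Estimated counts were rounded to whole reads. No count model was fitted, since each group had 1 library. Ratios used column totals and 0.5 added reads, with exact conditional binomial (Clopper-Pearson) 95% intervals, which cover counting error only. A count of 0 allows up to 3 reads, a share of 2.05e-05% of the Mn-treated and 2.15e-05% of the untreated library. Scripts ran in Python 3.11.15 with scipy 1.17.1 and were tested on simulated data. The alternatives were median-ratio scaling, 1 added read, whole estimated counts only, the authors' deposited fold change, another minimum of reads, removal of the length trend and a limit on the implied length.

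Members, role classes and lists were chosen with earlier results of these data known. Full values are given for members past 1.5-fold, the 2 highest and 2 lowest of each class and the 3 with the highest FPKM. Genes outside the symbol rule are named from the lists where at least 1.5-fold different with 100 reads or more in one library, at most 6 a list, and some of these are not reported here. The circular RNA coordinates all fell inside the spans of their host genes in GRCm38.p6 although the notes name mm9, so none are printed.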

Additional observations from a re-analysis of the deposited data

How the results depend on the processing

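No paired analysis was possible because each condition had 1 library, and for the same reason no library could be left out. Median-ratio scaling, which subtracts 0.18 from every log2 ratio, left 7 members higher and 9 lower by 1.5-fold in place of 15 and 5, and moved the median log2 ratio to 0.14 for lysine methyltransferases, -0.23 for arginine methyltransferases and 0.16 for lysine demethylases. Removing the trend with transcript length left 4 members higher and 6 lower, with medians of 0.023 for lysine methyltransferases and 0.00097 for lysine demethylases. With whole estimated counts only, 45 members stayed, 2 were lower, and the medians were 0.12 for arginine methyltransferases, a change of sign, and 0.56 for lysine demethylases. Limiting the members to an implied length within 1.3-fold between libraries, an alternative chosen after seeing the data, left 2 lower and a demethylase median of 0.51. The cause of these shifts was not tested. The difference of medians between writers and erasers ran from -0.27 with whole estimated counts only to -0.0026 with the length trend removed. Median-ratio scaling cannot change this difference, since it subtracts the same value from every ratio. All alternatives used the same 2 libraries, so the sign is not settled by them. The authors' deposited fold change gave 12 higher and 4 lower members. Shares of all measured genes past 1.5-fold were counted with column totals and median-ratio scaling only. Members with few reads, such as Setd4, Setdb2, Hdac8, Nsd1 and Suv39h2, have counting intervals too wide to place them closely.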

Other observations

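DNA methylation enzymes, which act beside histone methylation, were read from a list of 12 measured genes. Their median log2 ratio was 0.46, with 5 higher and 2 lower by 1.5-fold (21.6% and 5.97% of all measured genes). With median-ratio scaling 1 was higher and 2 were lower (13.4% and 11.3%). The de novo methyltransferases had opposite signs: Dnmt3a had 1482 reads in the Mn-treated and 863 in the untreated library, a log2 ratio of 0.72 [0.59 to 0.84], and Dnmt3b had 157 and 245, at -0.70. Dnmt3a is at 0.30 in the authors' deposited table, short of 1.5-fold. Of the UHRF paralogues, Uhrf2 had 418 and 239 reads, at 0.74, and Uhrf1, which guides maintenance methylation at replication, had 3645 and 5233, at -0.59 [-0.65 to -0.52]. Tet2, a 5-methylcytosine oxidase, had 184 and 79 reads, at 1.15, but in the authors' deposited table it is at 0.05.

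Of 20 measured readers of histone acetylation and methylation, 3 were higher and none lower by 1.5-fold, with a median log2 ratio of 0.26. Of all measured genes, 21.6% were higher and 5.97% lower. Zmynd11, which reads H3K36 trimethylation, the mark Setd2 writes, had 704 reads in the Mn-treated and 336 in the untreated library, at 1.00 [0.81 to 1.19]. Spin1, a reader of H3K4 trimethylation, had 1465 and 879, at 0.67 [0.55 to 0.80].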
